A study of Mus musculus with 5 samples.

Results

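Endothelial cells line every blood vessel, and their specialised form in the heart, the endocardium, lines the chambers and covers the valve leaflets. They are recognised by a small set of genes for junction and surface proteins, growth factor receptors and secreted factors. 10 such genes, Pecam1, Cdh5, Emcn, Plvap, Tek, Tie1, Kdr, Flt1, Vwf and Nos3, were followed here in RNA from mouse mitral valve leaflets. They were chosen by name, with earlier results of these data known. All 10 are among the 24062 genes of the count table and among the 14244 that passed the filter on low counts.

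The study asked how a knockout of Ift88, a gene for a protein of the transport machinery that builds cilia, alters the leaflet transcriptome. It holds 5 libraries, 2 titled wild type (WT) and 3 titled knockout (KO). All 5 came from animals that carry NfatC1Cre, a Cre driver of the endocardial lineage, whereas the 10 genes mark endothelium more widely. The genotype labels read Ift88f/f for WT and Ift88+/+ for KO, the opposite of what the titles imply, and the groups below follow the titles. No label gives the animals' age or the number of animals behind a library. Nothing says that the libraries are separate animals, so the p-values cover the spread among these 5 libraries, which may be technical.

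Library totals ranged from 23361414 to 53789026 counted reads. Levels are CPM, the counts of a library scaled to a common total with TMM factors. Ift88 stood at 7.53 and 19.8 CPM in WT replicates 1 and 2 and at 3.0, 3.91 and 0.409 CPM in KO replicates 1, 2 and 3, which goes with the titles. Its fold change did not pass the test (log2 fold change -2.48, SE 1.13, edgeR adjusted p = 0.81). Both WT libraries stood apart from each other in their cell markers. Summed over 12 markers of cardiac muscle cells, such as Actc1 (cardiac actin) and Myl2 (a ventricular myosin light chain), the level was 58400 CPM in WT replicate 1 and 117 CPM in WT replicate 2, against 28000 to 37000 CPM in KO. The fold changes of the 10 genes are therefore also given without each WT library. A fit with 1 WT library left assumes that it varies as the KO libraries do.

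PECAM1 and VE-cadherin, the product of Cdh5, join endothelial cells at their borders. The angiopoietin receptor TIE2, the product of Tek, works with its relative TIE1 to keep vessels stable, and VEGFR2 and VEGFR1, the products of Kdr and Flt1, bind vascular endothelial growth factors, VEGFR2 as the main signalling receptor and VEGFR1 largely as a decoy. Endothelial nitric oxide synthase, encoded by Nos3, responds to blood flow, and von Willebrand factor, encoded by Vwf, is stored in endothelial cells and released for clotting.

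The wide gap between the WT libraries was the main feature of these genes. All 10 were lower in WT replicate 1 than in WT replicate 2, where 49.9% of all genes tested were. The gap was at least 4-fold for 8 of the 10 (15.3% of all genes) and at least 10-fold for 5 (8.86%), with a median of 8.39-fold over the 10 genes and of 1.02-fold over all genes. All 10 were also higher in every KO library than in WT replicate 1, as were 32.6% of all genes. All 10 genes were detected in every library, with at least 245 reads. Summed over them the level was 312 CPM in WT replicate 1, 2876 CPM in WT replicate 2 and 1857, 2762 and 2105 CPM in KO replicates 1, 2 and 3. In such whole-tissue RNA fewer endothelial cells and less of these transcripts per cell cannot be told apart.

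Of the 10 endothelial identity genes 0 passed the edgeR quasi-likelihood test of KO against WT (0% of all genes tested were called, and the smallest adjusted p over all genes was 0.81). DESeq2 also called 0 of the 10, against 1.6% of the 13682 genes to which it gave an adjusted p, and limma-voom called 0 of the 10 and 0% of all genes. At an unadjusted p under 0.05 there were 2, Emcn and Vwf, both higher in KO. Over all genes 5.84% reached that p in either direction and 4.57% as higher in KO. The log2 fold change was positive for 9 of the 10 genes (49.4% of all genes), with a median of 0.63 against -0.01 over all genes. The median was 1.11 in limma-voom and 0.28 with each library's trend with transcript length removed. In 3 genes, Cdh5, Emcn and Vwf, all KO libraries exceeded both WT libraries (13.5% of all genes), and in 0 every KO library lay below both (11.1%). In 4, Pecam1, Tie1, Flt1 and Nos3, every KO library lay between the 2 WT libraries, as in 8.94% of all genes. Every KO library lay below WT replicate 2 in the same 4 genes, against 29.4% of all genes.

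**Figure D1:**
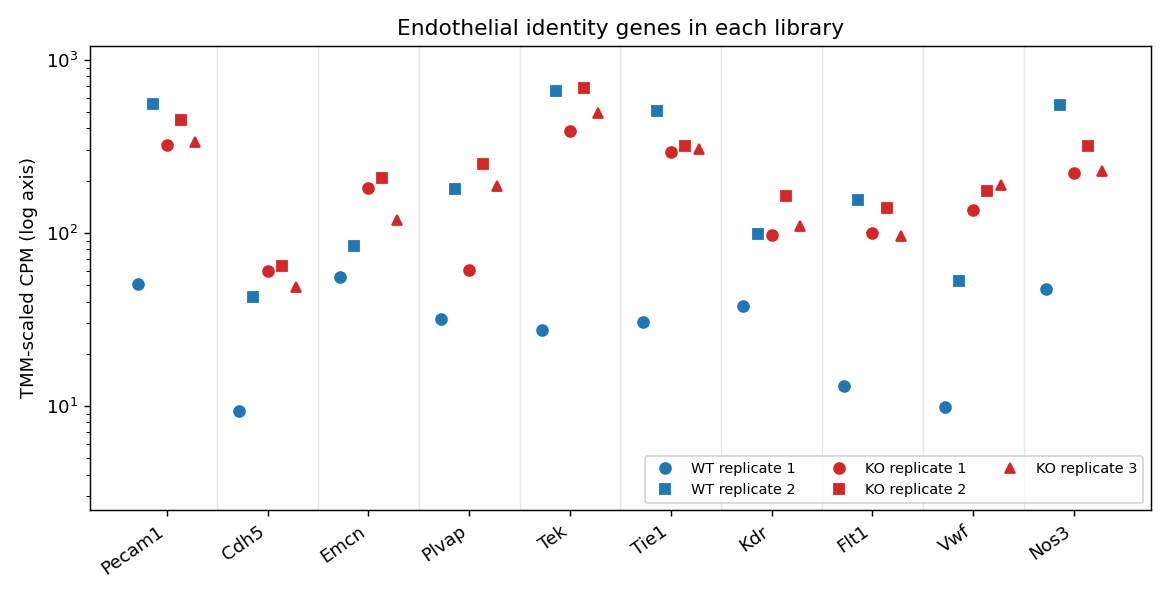
Level of each endothelial identity gene by library (log axis, TMM-scaled CPM). Each point is 1 library (blue WT, red KO), without error bars. WT replicate 1 is the lowest library for every gene, and the KO libraries lie above both WT libraries only for Cdh5, Emcn and Vwf among the 10.

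The direction of the comparison turned on which WT library was used. With WT replicate 1 left out the median log2 fold change of the 10 genes was -0.27 (0.15 over all genes). It was 2.75 with WT replicate 2 left out (0.25 over all genes). The titles of 3 libraries, WT replicate 1 and the first 2 KO replicates, carry 1 common code that no label explains. Among these, all 10 genes were higher in both KO libraries than in the WT library, with a median of 2.84. The same 10 were above WT replicate 1 in every KO library, as were 32.6% of all genes. The share and median over all genes were not taken within the libraries of the common code. No gene of the 10 was called in any of these fits. The share of all genes called was 1.6% without WT replicate 1 and 0% in the fits that left out any other library or kept the shared code alone.

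**Figure D2:**
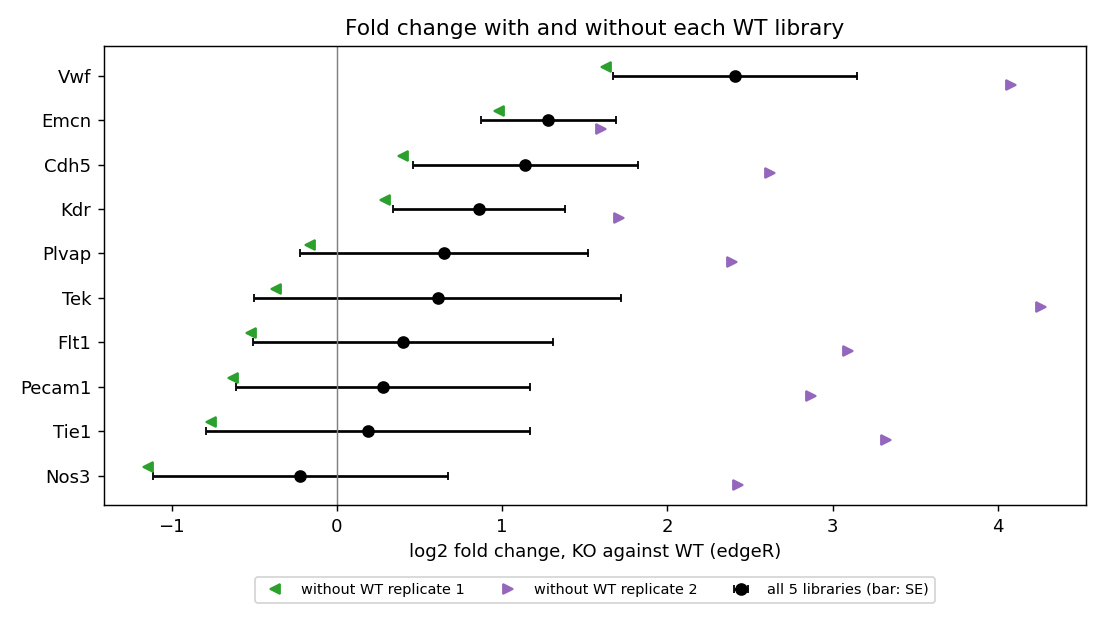
Log2 fold change of KO against WT for each gene in the edgeR fit to all 5 libraries (black, bars are SE), without WT replicate 1 (green) and without WT replicate 2 (purple). Without WT replicate 1 the values of Pecam1, Tie1, Flt1, Tek, Plvap and Nos3 are below 0, and without WT replicate 2 all 10 lie between 1.60 and 4.26.

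The angiopoietin receptors showed the widest gap. Tek (chromosome 4, 94739289 to 94874976, plus strand, GRCm38) and Tie1 (chromosome 4, 118471191 to 118490061, minus strand) encode the only members of their receptor kinase family. The promoters of both are shown with that of Emcn, the gene with the narrowest gap between the WT libraries. They cover 250 bases before and 50 after the start annotated in RefSeq on GRCm38.p6. Their positions are chr4:94739039-94739338 (plus strand), chr4:118489800-118490099 (minus strand) and chr3:137340828-137341127 (plus strand). The gene positions are from GENCODE, which places the start of Tie1 elsewhere, at 118490061. Most of the Tie1 window therefore lies inside the gene as GENCODE annotates it. Capitals mark GGAA or its reverse complement TTCC, the core bound by ETS factors, a family that controls many endothelial genes.
Tek: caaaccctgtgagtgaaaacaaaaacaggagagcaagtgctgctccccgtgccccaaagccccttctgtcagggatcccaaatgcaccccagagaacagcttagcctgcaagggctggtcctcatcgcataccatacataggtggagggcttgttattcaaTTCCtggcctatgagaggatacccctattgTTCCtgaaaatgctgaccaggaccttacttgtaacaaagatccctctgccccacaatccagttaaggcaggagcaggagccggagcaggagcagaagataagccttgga
Tie1: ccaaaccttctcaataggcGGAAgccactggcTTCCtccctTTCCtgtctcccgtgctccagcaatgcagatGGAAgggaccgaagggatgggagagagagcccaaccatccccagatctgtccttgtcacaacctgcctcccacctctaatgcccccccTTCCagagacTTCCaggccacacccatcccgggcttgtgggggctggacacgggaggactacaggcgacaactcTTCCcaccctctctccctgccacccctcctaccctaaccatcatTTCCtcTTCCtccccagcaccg
Emcn: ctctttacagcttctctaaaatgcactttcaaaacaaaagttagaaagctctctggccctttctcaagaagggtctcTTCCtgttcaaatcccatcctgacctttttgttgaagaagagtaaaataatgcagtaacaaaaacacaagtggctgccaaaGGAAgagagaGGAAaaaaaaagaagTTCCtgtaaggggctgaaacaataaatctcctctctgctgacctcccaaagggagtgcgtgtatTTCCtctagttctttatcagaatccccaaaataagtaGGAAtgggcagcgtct

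The core occurred 9 times in the Tie1 promoter, 6 times in that of Emcn and 2 times in that of Tek. At least 1 occurrence was found in 96% of 32851 mouse promoters of the same length, with a median of 3. Promoters with at least 9 made up 1.59% of these, those with at least 6 made up 15.7%, and those with at least 2 made up 84.6%. Promoter sequences were matched for 5 of the 10 genes, and those of Kdr and Flt1 held the core 5 and 4 times. AACAAT or its reverse complement ATTGTT, a core bound by SOX factors, occurred once each in the promoters of Tek and Emcn and in 10.7% of all promoters. AGATAA or TTATCT, a core bound by GATA factors, occurred once in that of Tek and in 11.2% of all. These matches describe letters and not binding sites. Of the 5 genes with a promoter sequence, Tek, with the widest gap between the WT libraries, had the fewest GGAA cores. Tie1, with the next widest gap, had the most, and Emcn, with the narrowest, had 6. A link between core count and gap was not tested.

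Tek stood at 27.2 and 657 CPM in WT replicates 1 and 2, and at 388, 684 and 494 CPM in KO replicates 1, 2 and 3. WT replicate 2 was 24.1-fold above WT replicate 1 and within the range of the KO libraries, so the groups overlapped. The log2 fold change was 0.61 (SE 1.11, adjusted p = 0.965, edgeR), -0.37 without WT replicate 1 and 4.26 without WT replicate 2. Tie1 measured 30.6 and 503 CPM in the WT libraries and 294, 317 and 303 CPM in the KO libraries. The 3 KO libraries differed by only 1.08-fold, the narrowest spread in KO among the 10 genes, and lay between WT libraries 16.4-fold apart. Its log2 fold change was 0.19 (SE 0.98, adjusted p = 0.99, edgeR), -0.76 without WT replicate 1 and 3.32 without WT replicate 2.

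The VEGF receptor genes Kdr (chromosome 5, 75932827 to 75978458, minus strand) and Flt1 (chromosome 5, 147561604 to 147726011, minus strand) differed in how far they followed this gap. Kdr measured 37.5 and 98.0 CPM in the WT libraries and 97.0, 162 and 109 CPM in the KO libraries. The WT libraries were 2.61-fold apart, and KO replicate 1 was level with WT replicate 2. Its log2 fold change was 0.86 (SE 0.52, adjusted p = 0.849, edgeR), 0.29 without WT replicate 1 and 1.71 without WT replicate 2. Flt1 measured 13.0 and 155 CPM in the WT libraries and 99.2, 138 and 95.3 CPM in the KO libraries. Here the WT libraries were 11.9-fold apart, with every KO library between them. Its log2 fold change was 0.40 (SE 0.91, adjusted p = 0.979, edgeR), -0.52 without WT replicate 1 and 3.09 without WT replicate 2. With each library's trend with transcript length removed the value was 0.24 for Kdr and -0.34 for Flt1, whose longest transcript is 6895 nt.

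Among the junction and surface genes, Pecam1 (chromosome 11, 106654217 to 106750628, minus strand) measured 50.3 and 557 CPM in the WT libraries and 322, 449 and 336 CPM in the KO libraries. Every KO library lay between the WT libraries, which were 11.1-fold apart. The log2 fold change was 0.28 (SE 0.89, adjusted p = 0.984, edgeR), -0.63 without WT replicate 1 and 2.87 without WT replicate 2. Cdh5 (chromosome 8, 104101625 to 104144511, plus strand) measured 9.32 and 42.7 CPM in the WT libraries and 59.9, 64.0 and 48.2 CPM in the KO libraries. All KO libraries were above both WT libraries, the lowest of them by a small margin. The log2 fold change was 1.14 (SE 0.68, adjusted p = 0.847, edgeR) and 0.40 without WT replicate 1, with adjusted p = 0.734. Without WT replicate 2 it was 2.62.

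Emcn (chromosome 3, 137341067 to 137432185, plus strand) encodes endomucin, a sialomucin of venous, capillary and endocardial surfaces. It measured 55.5 and 83.7 CPM in the WT libraries and 181, 207 and 119 CPM in the KO libraries. Its WT libraries were 1.51-fold apart, the closest of the 10 genes, and every KO library was above both. The group means were 69.6 ± 19.9 CPM (SD, n = 2) and 169 ± 45.1 CPM (SD, n = 3). KO against WT gave a log2 fold change of 1.28 (SE 0.41, unadjusted p = 0.0191, adjusted p = 0.81, edgeR). The value stayed positive under all 14 alternatives tried, from 0.98 (without WT replicate 1) to 1.80 (the libraries with a common title code). In DESeq2 the adjusted p was 0.231. With every KO library above both WT libraries, leaving libraries out could not turn the sign, so its constancy there adds no support.

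Plvap (chromosome 8, 71497765 to 71511752, minus strand) encodes the protein that forms the diaphragms of endothelial fenestrae and caveolae. It measured 31.5 and 179 CPM in the WT libraries and 61.0, 249 and 185 CPM in the KO libraries. KO replicate 1 was low and the KO libraries were 4.09-fold apart, the widest spread in KO among the 10 genes. The groups overlapped, with a log2 fold change of 0.65 (SE 0.87, adjusted p = 0.945, edgeR), of -0.16 without WT replicate 1 and of 2.39 without WT replicate 2.

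Vwf (chromosome 6, 125546774 to 125686679, plus strand) had the largest fold change of the 10 genes. It measured 9.85 and 52.8 CPM in the WT libraries and 135, 175 and 189 CPM in the KO libraries. Every KO library was above both WT libraries, and the lowest KO library was well above the higher WT library. The group means were 31.3 ± 30.3 CPM (SD, n = 2) and 167 ± 28.1 CPM (SD, n = 3), and the log2 fold change was 2.41 (SE 0.74, unadjusted p = 0.0171, adjusted p = 0.81, edgeR). It was 1.63 without WT replicate 1, with adjusted p = 0.129, and 4.08 without WT replicate 2. It stayed positive under all 14 alternatives, and the smallest adjusted p among them was 0.0766, with DESeq2. As no KO library overlapped WT, the fits that left libraries out could not turn the sign. That it held in them is no further support. Libraries differed in how level went with transcript length. The slope of log2 level per doubling of length was -0.293 and -0.202 in the WT libraries and 0.063, 0.244 and 0.187 in KO. Vwf has the longest transcript of the 10 genes, 8834 nt, and its log2 fold change was 1.41 with that trend removed. Platelets also carry von Willebrand factor. Summed over 9 markers of platelets and megakaryocytes, among them Pf4, Itga2b and Itgb3, the level was 33.5 and 319 CPM in WT and 99.5, 37.0 and 53.7 CPM in KO. The part of platelets and of transcript length in the Vwf difference was not tested beyond these values.

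Nos3 (chromosome 5, 24364810 to 24384474, plus strand) was the one gene of the 10 with a negative log2 fold change. It measured 47.2 and 547 CPM in the WT libraries and 221, 316 and 227 CPM in the KO libraries, all KO libraries between the WT libraries. The value was -0.22 (SE 0.89, adjusted p = 0.987, edgeR), -1.14 without WT replicate 1, 2.43 without WT replicate 2 and 0.56 in limma-voom. Nos3 shares 294 exon bases with Atg9b and 1040 with the unnamed transcript Gm15587, both annotated on the opposite strand. The library kit does not mark strand, so reads from these stretches cannot be assigned to one gene. No other gene of the 10 shared exon bases with an annotated gene.

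Ratios between the genes within a library do not depend on its scaling. Each gene was therefore also expressed as its log2 CPM minus the mean of the other 9 in the same library, a scale added after the levels had been seen and given with no test. On this scale Vwf was -1.57 and -2.03 in WT and -0.20, -0.43 and 0.15 in KO. It was the 1 gene of the 10 that was higher in all KO libraries than in either WT library. Of 11688 other genes, taken relative to the mean of the 10, 1.18% were. That mean was itself lowest in WT replicate 1, which lowers this share and raises the share of genes lower in KO. Each member is set against 9 genes with the same gap, so these shares are not a like measure for it. For Vwf the difference between the group means was 1.64, larger than the range within either group. Nos3 was 0.94 and 1.72 in WT and 0.59, 0.52 and 0.43 in KO. It was the 1 gene lower in all KO libraries than in either WT library, as were 23.3% of the other genes, and the difference between its group means was -0.82. With each library's length trend removed the difference for Vwf fell to 0.83, with WT at -1.07 and -1.60 and KO at -0.50, -1.0 and 0, so that KO replicate 2 was close to WT replicate 1. For Nos3 it was then -0.67, and Flt1 was also lower in all KO libraries than in either WT library, with a difference of -0.61.

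**Figure D3:**
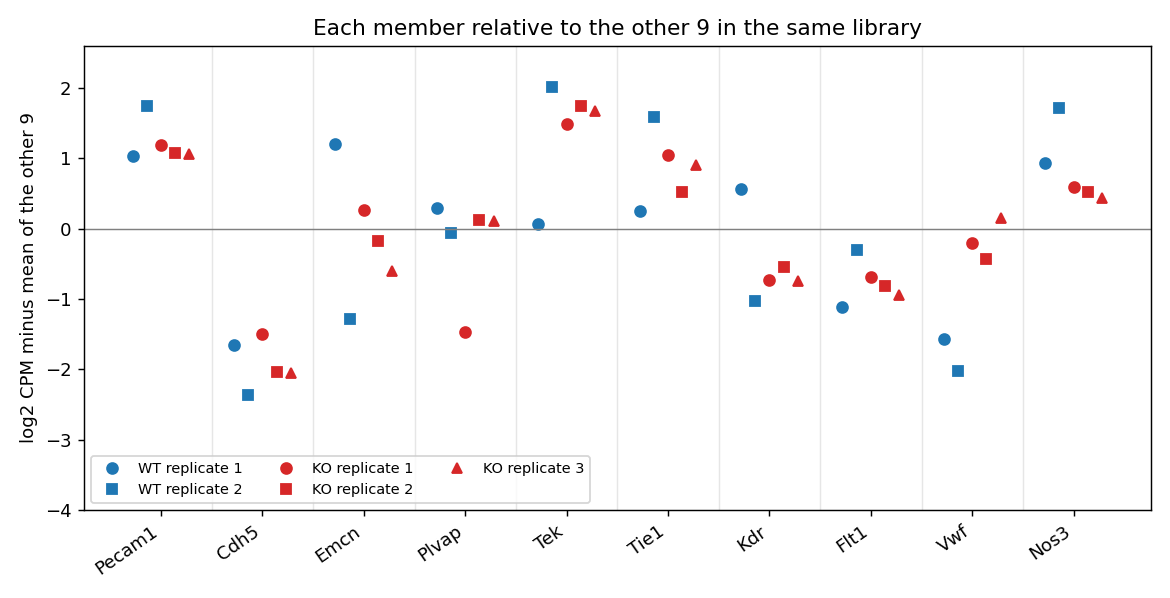
Log2 CPM of each gene minus the mean of the other 9 in the same library. Each point is 1 library (blue WT, red KO), without error bars. For Vwf the KO libraries (-0.43 to 0.15) lie above both WT libraries, for Nos3 (0.43 to 0.59) below both, and for the other 8 genes the groups overlap.

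The WT libraries also differed in the makeup of this set. Relative to the other 9, Emcn was 1.20 in WT replicate 1 and -1.29 in WT replicate 2, with the KO libraries between at 0.27, -0.17 and -0.60. Tek went the other way, at 0.06 and 2.02 in WT and 1.49, 1.75 and 1.68 in KO. Kdr was 0.57 in WT replicate 1 and -1.03 in WT replicate 2, and -0.73, -0.55 and -0.74 in KO. In WT replicate 1 the 10 genes were thus not all lower by one factor, as Emcn and Kdr were lower by far less than Tek and Tie1.

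Levels of different genes were compared per kilobase of the longest annotated transcript (CPM per kb). In both groups taken equally the order ran Pecam1, Tek, Plvap, Nos3, Tie1, Emcn, Kdr, Flt1, Cdh5 and Vwf. Pecam1 stood at 14.6 and 162 CPM per kb in WT and at 93.5, 131 and 97.5 in KO, and was above Tek in 3 of 5 libraries. Emcn was above Kdr in 5 of 5 libraries. Every other pair of neighbours in this order changed places in at least 1 library, and Plvap and Nos3, Nos3 and Tie1, and Flt1 and Cdh5 held it in 3 of 5 and Cdh5 and Vwf in 2 of 5. Vwf ranked 10 in the WT libraries at 1.12 and 5.97 CPM per kb, while in KO it reached 15.3, 19.8 and 21.4. Cdh5, a gene largely restricted to endothelium, stood only at 2.33 and 10.7 CPM per kb in WT and at 15.0, 16.0 and 12.1 in KO.

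Ratios of related genes were also taken within each library. Per kb, Tek over Tie1 was 0.81 and 1.19 in WT and 1.20, 1.97 and 1.48 in KO. Kdr over Flt1 was 3.36 in WT replicate 1 and 0.734 in WT replicate 2, with all KO libraries between at 1.14, 1.36 and 1.33.

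Other genes of endothelial cells were also lower in WT replicate 1 for the most part. Of 29 other pan-endothelial genes tested, 26 were higher in WT replicate 2 than in WT replicate 1, 13 of them at least 4-fold. Their log2 fold changes were positive for 12, with a median of -0.15, against 0.63 for the 10 genes. That median turned from -0.71 without WT replicate 1 to 1.19 without WT replicate 2, and the edgeR test called 0, with 2 at an unadjusted p under 0.05. Ptprb, which encodes the phosphatase VE-PTP that acts on TIE2 and VE-cadherin, measured 12.4 and 81.7 CPM in the WT libraries and 165, 343 and 156 CPM in the KO libraries (log2 fold change 2.23, SE 0.87, adjusted p = 0.81, edgeR). Mmrn2, which encodes the endothelial matrix protein multimerin 2, measured 21.5 and 68.0 CPM in the WT libraries and 113, 127 and 109 CPM in the KO libraries. Of the 29 genes, 2 lay above both WT libraries in every KO library and 2 below both, against 13.5% and 11.1% of all genes.

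Of 25 endothelial transcription factor genes tested 14 were positive (median log2 fold change 0.11), and the edgeR test called 0, with 1 at an unadjusted p under 0.05. All KO libraries were above both WT libraries in 4 of the 25 and below both in 2, close to the 13.5% and 11.1% of all genes. The median turned from -0.33 without WT replicate 1 to 1.69 without WT replicate 2. Foxo1, a forkhead factor held in check by growth factor signals, measured 22.6 and 37.5 CPM in the WT libraries and 57.2, 91.3 and 81.1 CPM in the KO libraries. Klf4, a factor induced by blood flow, measured 7.15 and 16.6 CPM in the WT libraries and 41.9, 67.9 and 13.9 CPM in the KO libraries, and its groups overlapped. Sox17, a factor of arterial endothelium, measured 15.4 and 19.7 CPM in the WT libraries and 4.77, 9.55 and 5.36 CPM in the KO libraries, so all KO libraries were below both WT libraries. Its log2 fold change was -1.42 (SE 0.64, adjusted p = 0.81, edgeR).

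Among the ligands and partner receptors of the VEGF and angiopoietin systems 17 genes were tested, 11 of them positive, with a median of 0.34 and 0 called by edgeR (2 at an unadjusted p under 0.05, one of them Ptprb, which is on both lists). The median was larger in the fits without WT replicate 1 (0.86) and WT replicate 2 (1.02). Nrp1, a co-receptor of VEGFR2, measured 127 and 106 CPM in the WT libraries and 232, 181 and 229 CPM in the KO libraries. Its log2 fold change was 0.87 (SE 0.32, adjusted p = 0.81, edgeR), and the WT libraries were close. Svep1, which encodes a matrix protein needed by lymphatic vessels, measured 0 and 0.0173 CPM in the WT libraries and 0.0316, 3.63 and 2.54 CPM in the KO libraries, too few reads in 3 libraries for a fold. Of 17 partners of the proteins encoded by the 10 genes, 11 were positive, with a median of 0.61 and 0 called by edgeR (3 at an unadjusted p under 0.05). It was 0.30 when WT replicate 1 was left out and 0.92 when WT replicate 2 was. Ctnnd1, which encodes the catenin that holds VE-cadherin at the membrane, measured 136 and 104 CPM in the WT libraries and 209, 337 and 230 CPM in the KO libraries. Ptpn11, which encodes the phosphatase SHP2, measured 33.2 and 21.2 CPM in the WT libraries and 67.2, 109 and 52.3 CPM in the KO libraries. Prkg1, which encodes the kinase downstream of nitric oxide, measured 10.1 and 13.3 CPM in the WT libraries and 18.8, 35.9 and 39.8 CPM in the KO libraries. These 3 genes were named for their small p. Over the 17 partners every KO library was above both WT libraries in 6 and below both in 0, against 13.5% and 11.1% of all genes.

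Markers of particular endothelial cells moved apart between the WT libraries. Of 9 endocardial markers 8 were higher in WT replicate 2 than in WT replicate 1. Their sum was 309 and 1970 CPM in WT and 1380, 2180 and 1220 CPM in KO, a list that includes Emcn, Plvap and Vwf. Every KO library was above both WT libraries in 3 of the 9, Emcn, Vwf and Npr3, and below both in 0. Over all genes these shares were 13.5% and 11.1%. Npr3, the 1 marker not higher in WT replicate 2, measured 12.8 and 10.2 CPM in WT and 61.9, 83.2 and 86.3 CPM in KO. Its log2 fold change was 2.75 (SE 0.41, adjusted p = 0.81, edgeR). Nfatc1, the gene for which the Cre driver is named, measured 56.3 and 405 CPM in the WT libraries and 129, 567 and 212 CPM in the KO libraries. Of 10 markers of capillary endothelium 7 were at least 4-fold higher in WT replicate 1 than in WT replicate 2. Their sum was 2260 and 1160 CPM in WT and 1410, 1440 and 1190 CPM in KO. On the capillary list Cd36 and Fabp4, for fatty acid uptake and binding, stood at 1160 and 556 CPM in WT replicate 1 and at 80.5 and 35.9 CPM in WT replicate 2. Aqp1, a water channel on the same list, went the other way, at 94.9 and 978 CPM. Which cells gave the reads of these genes was not tested. Lymphatic endothelial markers summed to 49.8 and 141 CPM in WT and 100 to 216 CPM in KO, and Lyve1 had 0 reads in WT replicate 1.

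Markers of several other cells also differed between the WT libraries. All 12 cardiac muscle markers were at least 4-fold higher in WT replicate 1 than in WT replicate 2, in the direction opposite to the 10 endothelial identity genes. Interstitial cell markers, among them Col3a1, Postn and Vim, summed to 2860 and 7990 CPM in WT and 8090 to 11600 CPM in KO. Of these 10 markers 8 were higher in WT replicate 2 than in WT replicate 1, 2 of them at least 4-fold. In 5 of the 10 every KO library was above both WT libraries (13.5% of all genes). Col1a1, 1 of these, measured 39.7 and 46.3 CPM in WT and 319, 507 and 263 CPM in KO. Macrophage markers summed to 91.7 and 288 CPM in WT and 137 to 295 CPM in KO, and those of pericytes and smooth muscle to 1590 and 741 CPM in WT and 834 to 1650 CPM in KO. Of 8 red blood cell markers 1 was tested, Alas2, at 92.6 and 2.6 CPM in WT and 34.7, 8.28 and 0 CPM in KO. Melanocyte markers summed to 90.2 and 89.2 CPM in WT and 89.1 to 257 CPM in KO. The part of these cells in the differences of the 10 genes was not tested. With the cardiac muscle markers taken out before scaling, an alternative added after the data were seen, the median log2 fold change of the 10 genes was 0.59 in place of 0.63. That step altered the scaling alone, so it cannot show what part muscle cells had.

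**Figure D4:**
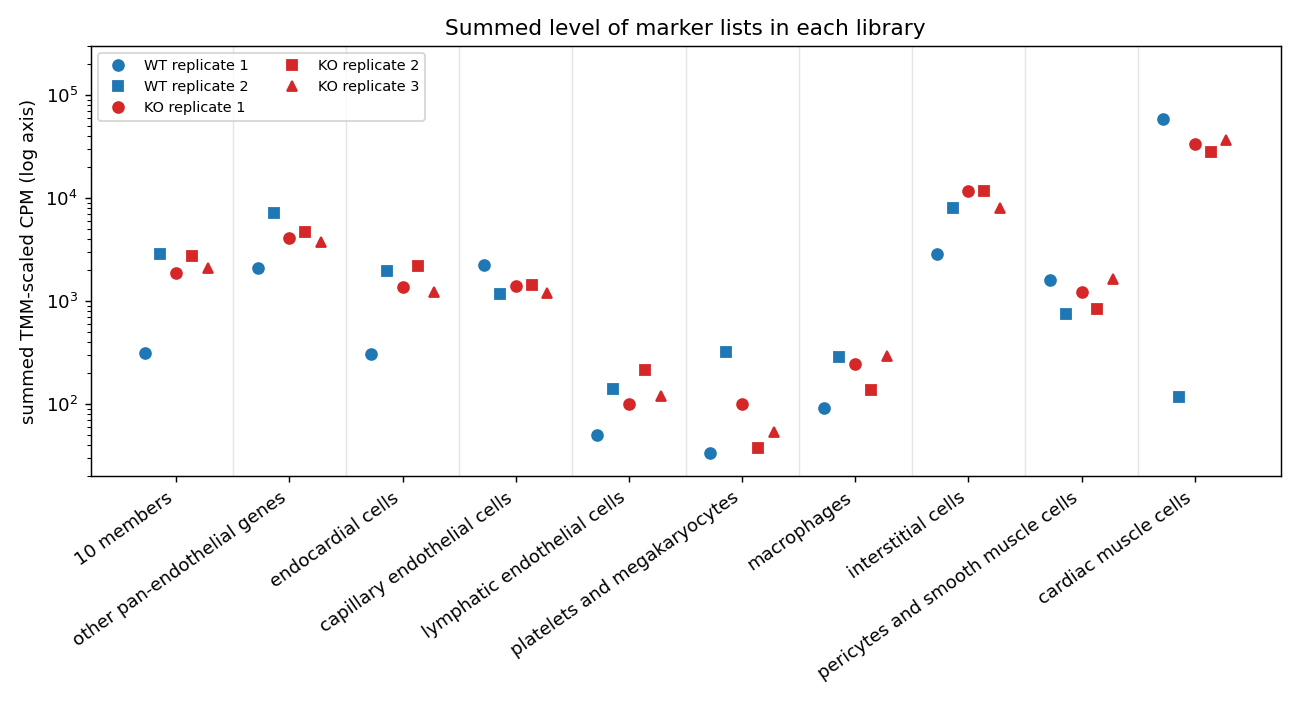
Summed level of the 10 endothelial identity genes and of marker lists by library (log axis, TMM-scaled CPM). Each point is 1 library (blue WT, red KO), without error bars. WT replicate 1 is lowest for the 10 genes (312 CPM) and highest for cardiac muscle cells (58400 CPM), where WT replicate 2 stands at 117 CPM.

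The mean profile of the 10 genes over the libraries was compared with that of each other gene, on the log2(CPM + 1) scale centred on the 2 group means. The distance was the root mean square difference over the 5 libraries. The profile stood at -2.06 in WT replicate 1, 0.71 in WT replicate 2 and 0.42, 1.0 and 0.60 in KO. Pecam1 and Flt1 were closest to the mean of the other 9, at a distance of 0.27 each, and Vwf and Emcn were farthest, at 0.83 and 0.82. The closest other genes were Galnt4, Srgap2, Ano6, Slco2a1, Nucb2 and Adamts15, at distances from 0.10 to 0.15. Slco2a1, which encodes a prostaglandin transporter, measured 29.9 and 163 CPM in the WT libraries and 138, 202 and 173 CPM in the KO libraries. Of the other genes with a mean of 20 or more normalized reads, 60 lay closer to the profile of the 10 than Pecam1 did to that of its 9 fellows. This number was lowest for Flt1, at 55. It was 89 for Cdh5, 312 for Tie1, 349 for Nos3, 534 for Kdr and 910 for Plvap. For Tek it was 1168, for Emcn 1891 and for Vwf 1984, the highest. These counts are drawn from a part of the 14244 genes tested. Many genes outside the set thus lay closer to its profile than members did, so the profile is not particular to these 10.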

How the data were processed

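Total RNA of mitral leaflets was purified on RNeasy columns with DNase and made into libraries with the SMART-Seq v4 kit, per the labels' protocols. The submitters' processing notes name FastQC 0.11.5, cutadapt 1.11, HTSeq and DESeq2, with the builds mm10 and GRCm38. No source used here gives the aligner or the annotation. The deposited table gives raw counts per gene and library. Per the file headers it also holds the authors' mean signal of normalized counts, log2 fold change, test score and p-value, none of which was used.

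Counts were fitted in edgeR 4.0.16 (R 4.3.3) with filterByExpr, TMM scaling and a robust two-sided quasi-likelihood F test on 2 WT and 3 KO libraries. p-values were adjusted by Benjamini-Hochberg over all 14244 genes tested, and a gene was called under 0.05. SE is the fold change over the square root of F. On a set of counts simulated at the estimated dispersions, the share of false calls by this fit was above the nominal rate. Most of the genes given a change in that set were not called, so a gene not called here may still differ. The simulation was not repeated, so it does not give either rate itself. The endothelial genes had between 245 and 37941 reads in a library, and the widest 95% exact Poisson interval reached 13.3% of the count to one side, which covers counting error only. Alternatives used limma-voom 3.58.1, DESeq2 1.42.0, other scalings and filters, and fits without each library. Gene positions and longest transcripts came from GENCODE M21 on GRCm38, where 22750 of 24062 symbols matched directly and 934 by an older symbol.

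Genes named were the 10 and Ift88, the 3 genes of smallest p in each other list (none being called) among those averaging 20 or more normalized reads, the 6 of closest profile and up to 3 markers of highest level per cell type. Npr3 and Col1a1 were named outside this rule, with their values known. The 10 genes, lists and markers were chosen with earlier results of these data known.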

Additional observations from a re-analysis of the deposited data

How the results depend on the processing

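Under the 14 alternatives no endothelial identity gene was called. Cdh5, Emcn, Kdr and Vwf kept a positive log2 fold change in all 14. For Cdh5, Emcn and Vwf, with every KO library above both WT libraries, leaving libraries out could not turn the sign. Genes called over the whole table were 0 in edgeR and 219 in DESeq2. Leaving out 1 library gave 0 to 245 calls, the 245 without WT replicate 1. Over these fits the median log2 fold change of the 10 genes ran from -0.27 (without WT replicate 1) to 2.75 (without WT replicate 2), and 3 to 10 of them lay above WT in every KO library, the 10 without WT replicate 2 and 5 without KO replicate 1. In the libraries with a shared title code that count was 10 and the median 2.84. The shares of all genes were not taken within each of these fits. With all 5 libraries scaled together, 32.6% of all genes lay above WT replicate 1 in every KO library. Single genes ran over the same fits from -0.63 to 2.87 (Pecam1), -0.16 to 2.39 (Plvap), -0.37 to 4.26 (Tek), -0.76 to 3.32 (Tie1), -0.52 to 3.09 (Flt1) and -1.14 to 2.43 (Nos3). With the length trend removed Flt1 was -0.34 and Tie1 -0.01. Nos3 was 0.56 in limma-voom and 2.51 in the libraries with a shared title code. The median of the transcription factors ran from -0.33 to 1.69 and was -0.05 with the length trend removed, and that of the other pan-endothelial genes ran from -0.71 to 1.19 and was 1.14 in the libraries with a shared title code. The cause of each change was not tested beyond the libraries left out. Of the 6 genes with the closest profile 3 were shared with a pseudocount of 0.25 CPM. No paired analysis was possible because the numbers that end the titles match between the groups in 1 pair only; the title code as a block would rest on the 3 libraries that share it, given above. The lowest count of an endothelial identity gene was 245 reads, and libraries were not compared at equal depth.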
